A study of Homo sapiens with 6 samples.

Results

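The clustered histone genes were taken as every row of the deposited count table whose gene symbol begins with HIST1H, HIST2H, HIST3H or HIST4H. This gave 57 of the 17100 rows, of which 48 belonged to the HIST1 cluster on chromosome 6, 5 to HIST2 and 3 to HIST3 on chromosome 1, and 1 to HIST4 on chromosome 12. By product they were 3 genes of the linker histone H1, 13 of H2A, 18 of H2B, 12 of H3 and 11 of H4. The counts came from RNA sequencing of MDA-MB-231, a human triple-negative breast cancer cell line. There were 3 libraries of vehicle-treated cells, and 3 of cells given 1 µM SGI-110 (guadecitabine) during 96 h, then harvested after 24 h without the drug. SGI-110 is a dinucleotide that releases decitabine, which is built into replicating DNA and traps DNA methyltransferases. All 6 libraries were of the same line, and its label was checked against marker genes. Among genes this line is known to express, VIM had 55524 to 79581 normalized counts and CD44 13817 to 35885, while PGR, the progesterone receptor that the line lacks, had 0 in 5 libraries and 33.2 in vehicle replicate 3. Of 3 genes taken as near background in this line, CDH1 had enough counts to be tested. It was lower after SGI-110 (log2 fold change −1.62). Of 3 markers of other cell types among the rows, 1 also had enough counts. It was not called with all libraries (log2 fold change 0.55) and was higher after SGI-110 without vehicle replicate 3 (0.77).

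H2A, H2B, H3 and H4 form the core around which DNA is wound, and H1 binds the linker DNA at its entry and exit. Their clustered genes are transcribed in S phase, when new DNA needs packing, and most of their mRNAs carry no poly(A) tail but end just after a short stem-loop that the protein SLBP binds. The TruSeq RNA sample preparation kit used for these libraries enriches polyadenylated RNA, so that counts of such mRNAs reflect what passed that step and not the level of all histone mRNA.

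The stem-loop is shown for genes that represent the main forms in the table, because it separated the rows that follow. It was found in the sequence of hg19 at all 57 genes. The 16 bases of stem and loop are in capitals, with 5 bases on either side, on the strand of the gene.
HIST1H1C, chr6:26055972-26055987, minus strand: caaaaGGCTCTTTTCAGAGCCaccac
HIST1H2BK, chr6:27114145-27114160, minus strand: ccaaaGGCTCTTTTAAGAGCCactta
HIST1H2BJ, chr6:27100100-27100115, minus strand: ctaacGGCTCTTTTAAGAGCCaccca
HIST2H2BE, chr1:149857738-149857753, minus strand: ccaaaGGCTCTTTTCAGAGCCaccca
HIST1H3J, chr6:27858098-27858113, minus strand: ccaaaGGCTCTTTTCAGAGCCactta
HIST1H4C, chr6:26104545-26104560, plus strand: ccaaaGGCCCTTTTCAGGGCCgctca
The coordinates are those of the capitals, and in the GENCODE annotation each of these 6 lies in an untranslated region at the 3′ end. The first arm of the stem read GGCCCT in 11 of 11 H4 genes and GGCTCT in 45 of the other genes. The fourth base of the loop was C in 45 genes, A in 9 and T in 3.

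The rows fell into 2 classes by where they ended. In 53 genes the row stopped within 60 bases of the stem-loop, and a stem-loop in that place was found in 0 of the 17043 other rows. In 4 H2B genes (HIST1H2BD, HIST1H2BK, HIST2H2BE and HIST2H2BF) the row ran 1728 to 29195 bases past it along the genome. AATAAA, the usual signal for polyadenylation, lay in the last 50 bases of the row in 4 histone genes, which was 7.02% of them against 63.8% of other rows. These were 3 of the 4 long rows (HIST1H2BD, HIST1H2BK and HIST2H2BE) and HIST1H2BH, whose row ended at the stem-loop. A copy of AATAAA also began 12 bases after the stem-loop in HIST1H1C and HIST1H2BD. These short stretches are shown with the 6 letters in capitals.
HIST1H1C, chr6:26055945-26055968, minus strand: actgatctcAATAAAagagctgga
HIST1H2BD, chr6:26158834-26158857, plus strand: catgttttcAATAAAtgagttgta
A match of letters says nothing of whether the signal was used.

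Library totals ranged from 8792127 counts in SGI-110 replicate 2 to 22277442 in vehicle replicate 3. Clustered histone genes took 0.0251% and 0.0238% of the counts in vehicle replicates 1 and 2, 0.0901% in vehicle replicate 3, and 0.0863%, 0.108% and 0.0957% in SGI-110 replicates 1 to 3. Vehicle replicate 3 stood apart from its group, and not only for histones. It had 20 rows with a count of 0 where the other libraries had 1593 to 2517. The 10 rows of MTRNR2L genes, nuclear copies of the mitochondrial 16S ribosomal RNA, summed to 65613 normalized counts in it, against 15675 and 12657 in the other vehicle libraries and 29230 to 40067 after SGI-110. The highest value of the 3 vehicle libraries lay in vehicle replicate 3 for 57 of 57 histone genes, and the highest of the 3 SGI-110 libraries lay in SGI-110 replicate 2 for 54 of 57. Whether these features of the libraries had a part in the histone values was not tested. The counts of calls and the sums by type are therefore given with all 6 libraries, without vehicle replicate 3, and without both vehicle replicate 3 and SGI-110 replicate 2. The last was added after the data were seen, and for single genes it is given where it changed the call.

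**Figure D1:**
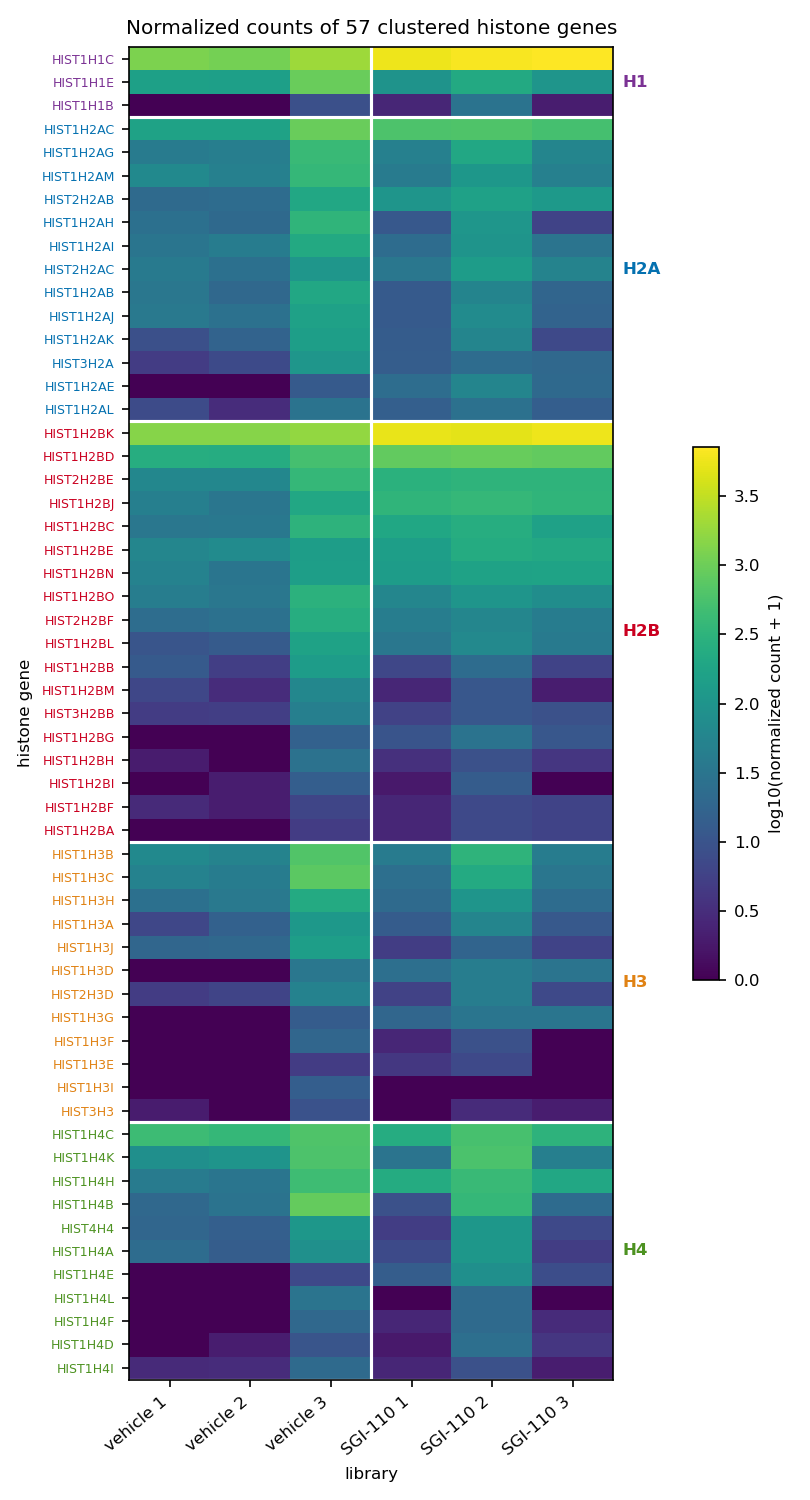
Heat map of log10(normalized count + 1) for the 57 histone genes in rows, grouped by type and ordered by mean, and the 6 libraries in columns. Vehicle replicate 3 was the highest of all 6 libraries for 38 genes, while the rows of HIST1H1C and HIST1H2BK, at the top of H1 and H2B, were highest in the SGI-110 columns.

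With all 6 libraries, SGI-110 was followed by higher counts of HIST1H1C and of 4 H2B genes and by lower counts of HIST1H3J. By edgeR, 40 histone genes passed the filter on low counts and 5 of them were higher (12.5%, against 19.3% of all 13322 genes tested), while 1 was lower (2.5%, against 18.4% of all genes). The median of their log2 fold changes was −0.41, where all genes gave 0.02. Without vehicle replicate 3, 20 of 40 were higher (50%, against 22.6% of all genes) and 0 were lower (against 19.4%), with a median of 1.14. Of these 20 genes, 4 had 0 counts in vehicle replicates 1 and 2 and had passed the filter through their SGI-110 libraries, and 16 of the other 36 were higher (44.4%). Without both libraries, 19 of 38 were higher (50%, against 27.2%) and 8 were lower (21.1%, against 23.2%), with a median of 0.59. Without such genes it was 16 of 35 higher (45.7%). The 5 genes called higher with all 6 libraries were among those called higher in both of the other fits, and 19 genes were called higher in both of the smaller fits. With each library left out in turn, HIST1H1C, HIST1H2BK and HIST1H2BD were called higher in all 6 fits, whereas HIST1H2BJ and HIST1H2BE, and the gene called lower, HIST1H3J, lost the call in some. Since vehicle replicate 3 held the highest vehicle value of every member, leaving it out moved every fold change that could be compared upward. The other 17 genes were under the filter with all 6 libraries, and none of them exceeded 16 counts in any library other than vehicle replicate 3 and SGI-110 replicate 2.

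**Figure D2:**
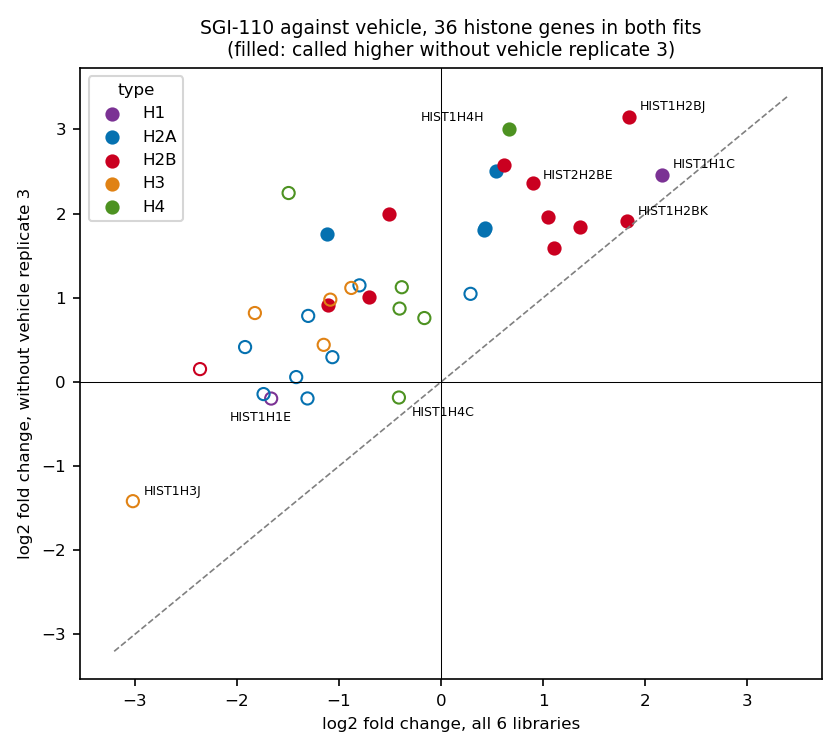
Log2 fold change of SGI-110 against vehicle with all 6 libraries (x axis) and without vehicle replicate 3 (y axis) for the 36 histone genes tested in both fits and above 3 counts in vehicle replicate 1 or 2, coloured by type, filled where called higher without vehicle replicate 3. All 36 points lie above the dashed line of equality, HIST1H2BK close to it with 1.82 and 1.91 and HIST1H4H far from it with 0.66 and 3.00.

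Summed over all members of a type, H1 and H2B counts were higher in each SGI-110 library than in any vehicle library, and those of H2A, H3 and H4 overlapped. The 3 H1 genes summed to 1390, 1282 and 2951 normalized counts in vehicle replicates 1 to 3 and to 5827, 6893 and 7323 after SGI-110, a ratio of means of 3.56 (vehicle 1874 ± 934, SGI-110 6681 ± 770; SD, n = 3). The 18 H2B genes summed to 2029, 1977 and 4438 in vehicle and 7497, 7542 and 8090 after SGI-110, a ratio of 2.74 (vehicle 2815 ± 1406, SGI-110 7710 ± 330). In both types the groups did not overlap, and without vehicle replicate 3 the ratios were 5.00 for H1 and 3.85 for H2B. This separation rested on a single gene in each type. Without HIST1H1C the H1 sums of the groups overlapped, and without HIST1H2BK so did the H2B sums. Vehicle replicate 3 was the highest of all 6 libraries for 1 of the 3 H1 genes and 10 of the 18 H2B genes. For H2A the sums were 472, 437 and 3248 in vehicle and 936, 1718 and 926 after SGI-110, a ratio of 0.861 with all libraries and 2.62 without vehicle replicate 3. For H3 they were 171, 167 and 2032 against 152, 857 and 177, and for H4 630, 553 and 2841 against 545, 2292 and 612. The H3 and H4 ratios were 0.5003 and 0.857 with all libraries, 2.34 and 1.94 without vehicle replicate 3, and 0.972 and 0.977 without SGI-110 replicate 2 as well. In the libraries that remained, the H3 and H4 sums of the groups overlapped, and those of H2A did not, at a ratio of 2.05.

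**Figure D3:**
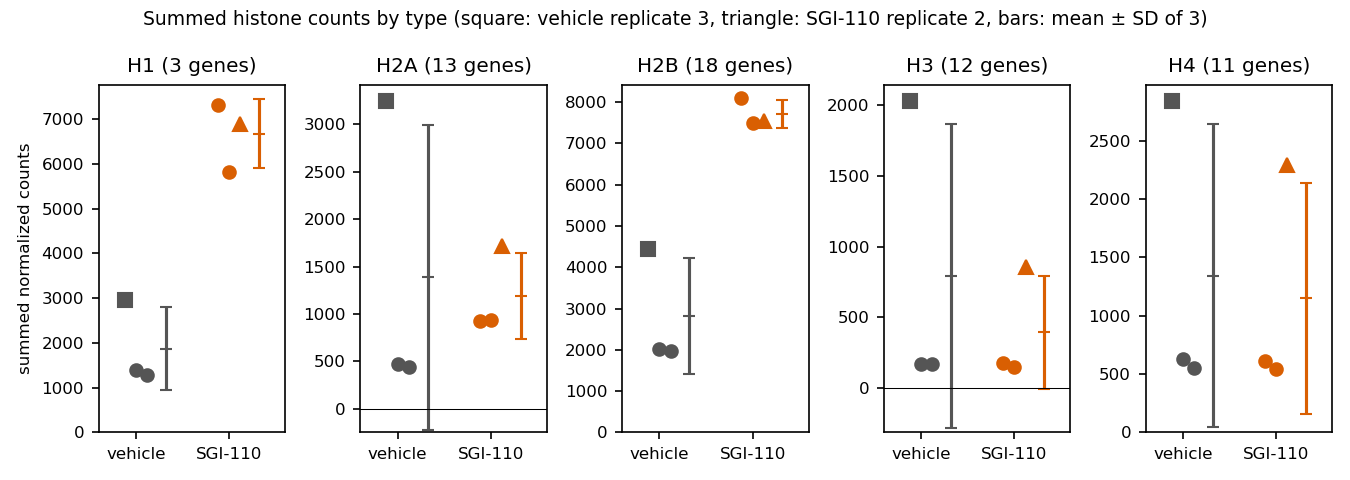
Summed normalized counts of each histone type per library, in vehicle (grey) and SGI-110 (orange), with vehicle replicate 3 as a square, SGI-110 replicate 2 as a triangle and the mean ± SD of 3 libraries at the side, on axes that differ between panels. The square lies below all SGI-110 points for H1 and H2B and above them for H2A, H3 and H4.

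A large part of these sums was 2 genes. HIST1H1C and HIST1H2BK together made up 57.4% of all clustered histone counts in vehicle replicates 1 and 2 and 69.6% in the SGI-110 libraries. Without them the other 55 genes summed to 2021, 1860 and 11797 in vehicle and 3848, 7697 and 4067 after SGI-110. The ratio of means was 0.996 with all libraries, 2.68 without vehicle replicate 3 and 2.04 without both libraries.

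Per kilobase of counted exon, HIST1H2BK and HIST1H1C had the highest counts of the clustered histone genes in vehicle replicates 1 and 2. Their means were 1705 and 1617 normalized counts per kb, followed by HIST1H4C with 1044. This scale allows for exon length only. It ranks what passed the enrichment of polyadenylated RNA and not the abundance of the transcripts. HIST1H2AC (304) and HIST1H2BD (301) came next, and HIST1H4K (255.7) after them. The counts of HIST1H2BK and HIST1H4K are also uncertain because few of their stretches are unique, as given below. After SGI-110 the order was led by HIST1H1C, which lay above HIST1H2BK in each library (7827 against 6413, 9075 against 5914, and 9865 against 6959 per kb). HIST1H2BD, HIST1H2AC and HIST1H4C, the next 3 by their means (1078, 1063 and 942 per kb), overlapped in their values over libraries.

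H1 histones. HIST1H1C, which encodes the somatic linker histone H1.2, had 1238, 1130 and 1994 normalized counts in vehicle and 5729, 6643 and 7221 after SGI-110. Every SGI-110 library lay above every vehicle library, and vehicle replicate 3 was the highest of its group. The log2 fold change was 2.17 ± 0.21 (SE; edgeR adjusted p = 7.29e-05), and 2.46 ± 0.14 without vehicle replicate 3. HIST1H1E, which encodes H1.4, had 152, 152 and 949 in vehicle and 96.3, 222 and 101 after SGI-110, so that the groups overlapped. It was not called with all libraries (log2 fold change −1.66 ± 0.70, edgeR adjusted p = 0.093) and was lower without both vehicle replicate 3 and SGI-110 replicate 2 (−0.62 ± 0.20, edgeR adjusted p = 0.0136). The 2 linker histone genes that were tested therefore did not share a direction there. HIST1H1B (H1.5) had 0, 0 and 10 counts in vehicle and 2, 14 and 1 after SGI-110, and was under the filter. The exact two-sided permutation test over libraries gave HIST1H1C, the 3 H2B genes named next that were higher, and HIST1H3J p = 0.1, the smallest that 3 against 3 libraries can give.

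H2B histones. HIST1H2BK had 1435, 1427 and 1719 normalized counts in vehicle and 5380, 4962 and 5838 after SGI-110. Its groups did not overlap, and it was the member in which vehicle replicate 3 departed least from the other vehicle libraries (1.20 times their mean). The log2 fold change was 1.82 ± 0.12 (edgeR adjusted p = 7.15e-06). HIST1H2BD had 249, 241 and 526 in vehicle and 860, 908 and 861 after SGI-110, a log2 fold change of 1.36 ± 0.27 (edgeR adjusted p = 0.00397). HIST1H2BJ had 44.8, 31.7 and 203 in vehicle and 330, 370 and 331 after SGI-110, a log2 fold change of 1.84 ± 0.54 with all libraries (edgeR adjusted p = 0.0261) and 3.15 ± 0.21 without vehicle replicate 3. HIST1H2BJ was not called without vehicle replicate 1, SGI-110 replicate 1 or SGI-110 replicate 3 (edgeR adjusted p = 0.074, 0.0517 and 0.0764). In both genes the SGI-110 libraries lay close together and above all vehicle libraries.

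HIST2H2BE, of the HIST2 cluster on chromosome 1, had 60.95, 59.1 and 370 in vehicle and 287, 326 and 320 after SGI-110. Here vehicle replicate 3 lay above the SGI-110 libraries, so that the groups overlapped. The gene was not called with all libraries (0.90 ± 0.59, edgeR adjusted p = 0.265) and was higher without that one (2.37 ± 0.18, edgeR adjusted p = 5.06e-06). HIST1H2BE, which is outside the rule for named genes and was chosen after its values were seen, was the fifth gene called higher with all libraries. It had 59.0, 70.7 and 141 in vehicle and 147, 234 and 213 after SGI-110, groups that did not overlap (1.11 ± 0.33, edgeR adjusted p = 0.0259). It was not called without vehicle replicate 1 or 2 (edgeR adjusted p = 0.0772 and 0.0753) or without SGI-110 replicate 2 or 3 (0.0648 and 0.0933). Among the types with more than 2 genes tested, H2B had the largest share called higher. With all 6 libraries 4 of 12 tested H2B genes were higher, against 19.3% of all genes. Without vehicle replicate 3 it was 10 of 11 (against 22.6%), and without both libraries 10 of 10 (against 27.2%). In each fit 0 H2B genes were lower, against 18.4%, 19.4% and 23.2% of all genes. The H2B medians of the log2 fold change were 0.97, 1.91 and 1.87.

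H2A histones. None of 13 H2A genes was called with all 6 libraries, where 19.3% of all genes were higher and 18.4% lower. The H2A median on the log2 scale was −1.06, and 5 of the 13 values were above 0. Without vehicle replicate 3, 5 were higher and 0 lower (against 22.6% and 19.4% of all genes), with an H2A median of 1.05. Without both libraries 5 were higher and 2 lower (against 27.2% and 23.2%), with an H2A median of 0.30. HIST1H2AE, at 0 counts in vehicle replicates 1 and 2, was among the 5. Without it 4 of 12 were higher (33.3%) in both of these fits. HIST1H2AC, the H2A gene with the highest mean normalized count, had 165, 167 and 951 normalized counts in vehicle and 597, 617 and 528 after SGI-110. Vehicle replicate 3 was the highest of all 6 libraries, and the other vehicle libraries were below all SGI-110 libraries. Its log2 fold change was 0.42 ± 0.58 with all libraries and 1.80 ± 0.15 without vehicle replicate 3 (edgeR adjusted p = 1.02e-05). HIST2H2AB had the same shape, with 21.0, 22.2 and 209 in vehicle and 104, 159 and 116 after SGI-110, and a log2 fold change without vehicle replicate 3 of 2.51 ± 0.28.

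HIST1H2AG and HIST1H2AM did not pass the test in any of the 3 fits. HIST1H2AG had 39.999, 44.4 and 411 in vehicle and 47.8, 206 and 56.5 after SGI-110. HIST1H2AM had 66.7, 47.5 and 371 in vehicle and 38.9, 110 and 46.4 after SGI-110. In both, vehicle replicate 3 and SGI-110 replicate 2 were the highest libraries of their groups, and the other libraries differed by less than these. The other H2A genes called higher without vehicle replicate 3 were HIST1H2AE, HIST1H2AL and HIST3H2A. HIST1H2AE had 0, 0 and 15 counts in vehicle and 28, 28 and 20 after SGI-110, which was at least 11.05-fold higher than the limit of 3 counts per library that vehicle replicates 1 and 2 allow, and at least 7.11-fold without SGI-110 replicate 2.

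H3 histones. HIST1H3J was the only member called lower with all 6 libraries. It had 18.1, 19.0 and 144 normalized counts in vehicle and 4.05, 16.3 and 5.05 after SGI-110. Every SGI-110 library was below every vehicle library, though SGI-110 replicate 2 was close to the lower vehicle libraries. The log2 fold change was −3.02 ± 0.97 (edgeR adjusted p = 0.0358), −1.42 ± 0.53 without vehicle replicate 3 (edgeR adjusted p = 0.0519) and −2.01 ± 0.51 without both libraries (edgeR adjusted p = 0.00265). It was not called without SGI-110 replicate 1 or 3 (edgeR adjusted p = 0.115 and 0.144). HIST1H3B, the H3 gene with the highest mean normalized count, had 66.7, 52.8 and 638 in vehicle and 38.9, 324 and 40.4 after SGI-110. HIST1H3C had 50.5, 40.1 and 765 in vehicle and 24.3, 226 and 31.3 after SGI-110.

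HIST1H3H and HIST1H3A followed the same order of libraries, with 230 and 115 normalized counts in vehicle replicate 3, 102 and 56.99 in SGI-110 replicate 2, and at most 34.8 and 14.8 in any other library. None of these 4 genes was called in any of the 3 fits, and each was below 0 with all libraries and above 0 without vehicle replicate 3. The 2 H3 genes that were called higher in the smaller fits, HIST1H3D and HIST1H3G, had 0 counts in vehicle replicates 1 and 2. HIST1H3D had 43 counts in vehicle replicate 3 and 31, 21 and 29 after SGI-110 (at least 10.7-fold above the limit of the other vehicle libraries). HIST1H3G had 16 there and 22, 15 and 30 after SGI-110 (at least 8.70-fold). Both genes had passed the filter of the smaller fits through their SGI-110 libraries. Of the other 5 H3 genes none was higher there (0 of 5 in both fits), where 22.6% and 27.2% of all genes were higher. With 5 genes a departure from these shares cannot be shown. HIST3H3, the H3 gene of testis (H3t), had 1, 0 and 11 counts in vehicle and 0, 1 and 1 after SGI-110, and HIST1H2BA, the H2B gene of testis, had 0, 0 and 5 in vehicle and 2, 3 and 5 after SGI-110. Both were under the filter, and a difference in either was not detectable at this depth.

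H4 histones. The 11 H4 genes among these rows are known to encode the same protein. None of the 6 tested was called with all 6 libraries, where 19.3% of all genes were higher and 18.4% lower. HIST1H4C had 448, 366 and 614 normalized counts in vehicle and 241, 545 and 315 after SGI-110, groups that overlapped (log2 fold change −0.41 ± 0.29, edgeR adjusted p = 0.292). HIST1H4H had 39.0, 30.6 and 453 in vehicle and 238, 417 and 207 after SGI-110. It was the H4 gene with the largest rise without vehicle replicate 3 among those with counts in both groups (3.00 ± 0.34, edgeR adjusted p = 7.10e-05), and it was the only H4 gene higher without both libraries (2.67 ± 0.23).

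HIST1H4K had 82.9, 98.2 and 596 in vehicle and 29.96, 588 and 45.4 after SGI-110, and HIST1H4B had 19.0, 28.5 and 897 in vehicle and 8.10, 368 and 21.2 after SGI-110. In both genes vehicle replicate 3 and SGI-110 replicate 2 were far above the other 4 libraries. Without both, 4 H4 genes of 6 tested were lower (HIST1H4A, HIST1H4C, HIST1H4K and HIST4H4) and 1 was higher, against 23.2% and 27.2% of all genes. The H4 median log2 fold change was −0.40 with all libraries, 1.13 without vehicle replicate 3 and −1.01 without both. HIST1H4K had a log2 fold change of −1.28 ± 0.27 there (edgeR adjusted p = 0.000459), and HIST1H4C one of −0.55 ± 0.18 (edgeR adjusted p = 0.0122).

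The 35 genes outside the rule for named genes are given by their ranges. The 9 of H2A had mean normalized counts of 15.1 to 82.6 and log2 fold changes of −1.92 to 2.92 with all libraries. The 13 of H2B had means of 3.52 to 164, and the 8 that were tested had log2 fold changes of −2.36 to 1.501. The 6 of H3 had means of 2.19 to 21.7, and the 7 of H4 had means of 5.94 to 43.1, with 2 tested in each. Among all of these, HIST1H2BE was the only gene called with all libraries, and 12 were higher and 0 lower without vehicle replicate 3. The 12 were 3 of 9 tested in H2A, 6 of 7 in H2B, 2 of 2 in H3 and 1 of 3 in H4, where 22.6% of all genes were higher. They include HIST1H2AE, HIST1H3D, HIST1H3G and HIST1H4E, which had 0 counts in vehicle replicates 1 and 2. HIST1H3I had 17 counts in vehicle replicate 3 and 0 in all of the other libraries.

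The libraries that stood apart did so unequally over the members. Over the 38 genes with enough counts to form both ratios (a mean of at least 3), vehicle replicate 3 was 1.20 to 37.7 times the mean of vehicle replicates 1 and 2, with a median of 7.69, while the median over 12905 genes was 0.991. SGI-110 replicate 2 was 0.885 to 25.1 times the mean of SGI-110 replicates 1 and 3, with a median of 2.41 against 0.980. Across these 38 genes the ratios had a Spearman correlation of 0.438, given as a description, since genes share libraries and depth and are not independent. HIST1H4B had the highest value of both ratios. For the MTRNR2L rows together the same ratios were 4.63 and 1.16, and SGI-110 libraries were 2.56 times vehicle replicates 1 and 2.

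**Figure D4:**
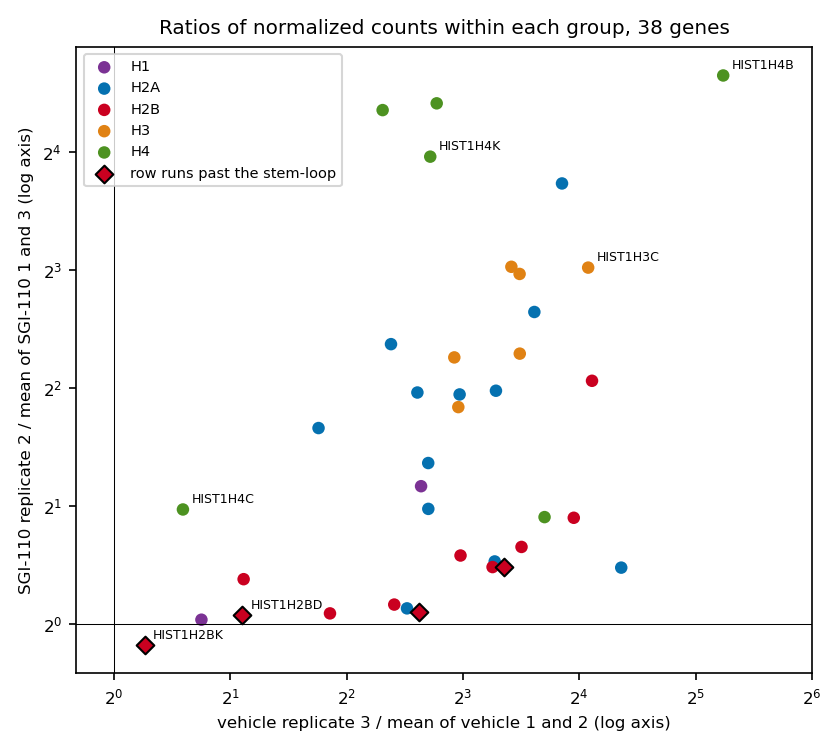
Ratio of vehicle replicate 3 to the mean of vehicle replicates 1 and 2 (x axis) against the ratio of SGI-110 replicate 2 to the mean of SGI-110 replicates 1 and 3 (y axis), both of normalized counts on log axes, for 38 histone genes coloured by type, with diamonds for the rows that run past the stem-loop. The diamonds lie at 0.885 to 1.40 on the y axis, and 10 of the 12 H3 and H4 genes lie above 3 on it.

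The rows were also compared by class, which the symbol rule did not use. In the 4 rows that ran past the stem-loop, SGI-110 replicate 2 was 0.885 to 1.40 times the other SGI-110 libraries (median 1.06), and the median over all rows ending at the stem-loop was 2.82. Among rows of H2B genes alone, the 8 that ended there had ratios of 1.06 to 4.18 (median 1.45), which overlapped those of the 4 long rows. Vehicle replicate 3 was 1.20 to 10.2 times the other vehicle libraries in the 4 rows (median 4.16) and had a median of 7.85 in the others. All 4 were called higher without vehicle replicate 3 and without both libraries, and 2 of 4 (HIST1H2BD and HIST1H2BK) with all 6. Of the rows that ended at the stem-loop, 3 of 36 were higher with all libraries, 16 of 36 without vehicle replicate 3, and 15 of 34 without both, where 8 were lower. Of all genes, 19.3%, 22.6% and 27.2% were higher in these fits, and 23.2% were lower in the last. The short rows called higher in the smaller fits include HIST1H2AE, HIST1H3D and HIST1H3G, and without vehicle replicate 3 also HIST1H4E. These had 0 counts in vehicle replicates 1 and 2 and passed the filter through their SGI-110 libraries. All 4 long rows were of H2B genes, so that the class of row and the type cannot be told apart for them. Among the H2B rows, 6 of the 7 short ones that were tested without vehicle replicate 3 were also higher.

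The sequence of the loop was described in the same way after the values were seen, with no test. The 9 genes with A as the fourth loop base were 6 of H2B, 2 of H3 and 1 of H2A. Those tested numbered 6, and 3 were higher with all libraries and 6 in each of the smaller fits. Of the genes with C there, 2 of 32 were higher with all libraries and 14 of 32 without vehicle replicate 3. Without both libraries 13 of 30 were higher and 7 lower, where 23.2% of all genes were lower. Of all genes 19.3% were higher with all libraries, 22.6% without vehicle replicate 3 and 27.2% without both. HIST1H3G with A, and HIST1H2AE, HIST1H3D and HIST1H4E with C, had 0 counts in vehicle replicates 1 and 2. They passed the filter of the smaller fits through their SGI-110 libraries. Since 6 of the 9 genes with A were of H2B, the loop base was not separated from the type. Nor was it separated from the class of row, as HIST1H2BD and HIST1H2BK with A were long rows. Of the 2 tested genes with T, none was higher in any fit.

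Many H2A and H2B genes stand back to back, with their starts facing away from each other over a short shared stretch of DNA, so that one promoter region serves both. The table held 10 such pairs, with 223 to 322 bp between the starts. In 7 of the 8 pairs with both genes tested in all 6 libraries, the log2 fold change of the H2B gene was above that of its H2A partner, the exception being HIST1H2BG with HIST1H2AE. Without vehicle replicate 3 it was 7 of 7 pairs, because HIST1H2BG fell under the filter in that fit and its pair left the count. In the 7 pairs all 7 H2B genes and 1 of the 7 H2A genes were called higher, against 22.6% of all genes. In the remaining pairs only the H2A gene was tested there. Of these, HIST1H2AE, at 0 counts in vehicle replicates 1 and 2, and HIST3H2A were called higher, and HIST1H2AJ was not called. The stretches between the starts of 2 pairs are shown because without vehicle replicate 3 both genes were called higher in one of them and only the H2B gene in the other. They are on the plus strand of hg19, with the H2B gene to the left on the minus strand and the H2A gene to the right. Capitals mark the box CCAAT, the motif TATAAA of core promoters, and the octamer ATTTGCAT, which OCT1 binds in H2B promoters. Each was searched on either strand, and adjoining or overlapping matches run together.
HIST1H2BK and HIST1H2AH, chr6:27114638-27114860: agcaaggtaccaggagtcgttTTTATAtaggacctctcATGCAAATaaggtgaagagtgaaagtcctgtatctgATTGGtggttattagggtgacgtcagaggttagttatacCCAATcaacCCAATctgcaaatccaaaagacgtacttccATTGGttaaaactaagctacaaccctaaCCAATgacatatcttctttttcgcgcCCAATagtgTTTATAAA
HIST1H2BC and HIST1H2AC, chr6:26124133-26124372: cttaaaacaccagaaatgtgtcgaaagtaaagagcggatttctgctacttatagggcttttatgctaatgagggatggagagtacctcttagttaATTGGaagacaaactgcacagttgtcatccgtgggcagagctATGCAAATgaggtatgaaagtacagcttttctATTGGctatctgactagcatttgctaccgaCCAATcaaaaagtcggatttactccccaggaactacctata
The stretch between HIST1H2BK and HIST1H2AH held 6 matches of CCAAT, 3 of TATAAA and 1 of the octamer, and that between HIST1H2BC and HIST1H2AC held 3, 0 and 1.

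The 2 genes on either side of the first stretch differed. HIST1H2BK rose in every fit, as given above. HIST1H2AH had 25.7, 20.1 and 331 normalized counts in vehicle and 10.5, 104 and 5.05 after SGI-110, with log2 fold changes of −1.92 ± 1.24 with all libraries (edgeR adjusted p = 0.254) and 0.41 without vehicle replicate 3. Without both libraries it was lower (−1.50 ± 0.45, edgeR adjusted p = 0.0092). On either side of the second stretch, HIST1H2BC had 32.4, 33.8 and 316 in vehicle and 197, 248 and 159 after SGI-110. Without vehicle replicate 3 it was higher by 2.58 on the log2 scale, and HIST1H2AC by 1.80. HIST1H2AH and HIST1H2BC were chosen as partners after their values were seen.

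In windows from 250 bases before to 50 after the start of each row, read on either strand in hg19, CCAAT was found in 89.5% of the histone genes and in 35.2% of the other rows. TATAAA was found in 64.9% against 8.19%, and ATTTGCAT in 40.4% against 1.35%. The octamer was in 14 of 18 H2B windows, 8 of 13 H2A, 1 of 12 H3 and none of the H1 and H4 windows. CCAAT was in all windows of H1, H2A, H2B and H3 genes and in 5 of 11 of H4. These letters describe the windows and not the binding of a factor.

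Because histone genes of a type are near copies, reads may match more than one of them. In 47 of the 57 genes at least 80% of the 50-base stretches searched occurred once in the genome. Unspliced rows were searched whole. In spliced rows, such as HIST1H2BD, HIST1H2BK and HIST2H2BF, only sequence up to just past the stem-loop was searched. Their counted exons beyond it were left out, so that HIST1H2BK gave 449 stretches where its counted length was 839 bp. The lowest shares were 8.20% in HIST1H4K, 22.1% in HIST2H3D, 26.5% in HIST2H2BF, 27.4% in HIST1H2AJ, 32.6% in HIST1H2AI and 43.2% in HIST1H2BK, so that counts of these genes are uncertain. For HIST2H2BF and HIST1H2BK the shares describe only the part searched. The share was 76.2% in HIST1H2BE and 100% in HIST1H1C. Of the 5 genes called higher with all libraries, 3 were at or above 80%, in a fit where 19.3% of all genes were higher. Without vehicle replicate 3, 16 of 32 tested genes at or above 80% were higher, against 22.6% of all genes. The 16 include HIST1H2AE, HIST1H3D, HIST1H3G and HIST1H4E, which had 0 counts in vehicle replicates 1 and 2.

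Genes that make histones outside the clusters were taken from a list of variants labelled replication-independent, most of whose mRNAs are polyadenylated. With all 6 libraries 4 of 10 tested were lower (40%, against 18.4% of all genes) and 0 higher (against 19.3%), with a median log2 fold change of −0.32. H1F0, the linker histone H1.0 of resting and differentiated cells, had 7703, 6533 and 5639 normalized counts in vehicle and 2499, 2723 and 2409 after SGI-110, a log2 fold change of −1.38 ± 0.13 (edgeR adjusted p = 6.22e-05). Its groups did not overlap, and vehicle replicate 3 was the lowest of the vehicle libraries. H1FX (H1.10), H2AFV (H2A.Z.2) and H2AFJ (H2A.J) were also lower, with log2 fold changes of −0.90 ± 0.15, −0.76 ± 0.16 and −0.79 ± 0.26.

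H2AFX, the variant phosphorylated at DNA breaks, had a log2 fold change of −0.04 ± 0.17, H3F3B, which encodes H3.3, one of −0.21 ± 0.12, and CENPA, the H3 of the centromere, one of −0.28 ± 0.12, and none was called with all libraries. Without both libraries H3F3B and CENPA were lower (−0.38 ± 0.12 and −0.41 ± 0.15, edgeR adjusted p = 0.0127 and 0.0229). H2AFZ (H2A.Z.1) was not called with all libraries (−0.35 ± 0.26) and was lower without vehicle replicate 3 (−0.59, edgeR adjusted p = 0.0332). The row of H3F3A counted only 20 bp of exon and was under the filter. Of the histone variants of the germ line, 2 were in the table and 1 was tested. H2AFB2 had 0 counts in all vehicle libraries and 57.5, 126 and 92.9 normalized counts after SGI-110, at least 33.2-fold above the limit of 3 counts per library, over 77 bp of counted exon.

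Among 12 genes of histone mRNA 3′ end processing, 4 were higher (33.3%, against 19.3% of all genes) and 0 lower (against 18.4%) with all libraries, with a median of 0.09. ZNF473, a zinc finger protein of the U7 machinery, had 209, 204 and 238 normalized counts in vehicle and 474, 317 and 444 after SGI-110 (0.94 ± 0.16, edgeR adjusted p = 0.00211). CSTF2, a cleavage factor, and NCBP1 and NCBP2, which bind the cap, were higher by 0.48, 0.49 and 0.55 on the log2 scale. SLBP itself had 2309, 2299 and 2200 in vehicle and 2801, 2338 and 2537 after SGI-110, and was not called (0.17 ± 0.10, edgeR adjusted p = 0.217). Of 7 genes of histone gene transcription 1 was higher (14.3%, below the 19.3% of all genes), CCNE1 (cyclin E1), by 0.76 ± 0.11. NPAT, the coactivator of histone genes, was not called with all libraries (0.26 ± 0.25) and was higher without both libraries (0.51 ± 0.20, edgeR adjusted p = 0.0361). Of 5 genes of histone mRNA decay LSM1 was higher by 0.57 and ZCCHC11, a uridylyltransferase, lower (−0.43). This was 20% in each direction, near the 19.3% and 18.4% of all genes.

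More histone chaperones and S phase genes were lower than higher. Of 18 chaperone genes 6 were lower (33.3%, against 18.4% of all genes) and 1 higher (5.56%, against 19.3%), with a median log2 fold change of −0.19, and without vehicle replicate 1 the lower ones numbered 3. ASF1A, a chaperone of H3 and H4, had 686, 712 and 605 normalized counts in vehicle and 360, 295 and 280 after SGI-110 (−1.09 ± 0.13, edgeR adjusted p = 0.000254). CABIN1, of the HIRA complex, and SSRP1, a subunit of FACT, were lower (−0.62 and −0.41), and DAXX, a chaperone of H3.3, was higher (0.44). Of 21 S phase genes 11 were lower (52.4%, against 18.4% of all genes) and 2 higher (9.52%, against 19.3%), with a median of −0.39. MCM5, of the replicative helicase, had 4007, 4324 and 3406 in vehicle and 1671, 1805 and 1973 after SGI-110 (−1.11 ± 0.12, edgeR adjusted p = 0.000155), and PCNA, UHRF1 and GINS2 were lower (−0.62, −0.76 and −0.57). The 2 that were higher were RRM2 and CDC6. In bulk RNA, fewer cells in S phase and less mRNA per cell cannot be told apart.

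Without vehicle replicate 3, the lists had 6 of 10 variants lower (60%), 3 of 12 processing genes higher (25%) and 1 lower, 5 of 18 chaperones lower (27.8%) and 1 higher, and 12 of 21 S phase genes lower (57.1%) and 2 higher. Of all genes 22.6% were higher and 19.4% lower in that fit, so that the share of processing genes higher was near that of all genes. Without both libraries these were 8 of 10 variants lower (80%), 5 of 12 processing genes higher (41.7%) and 1 lower, 6 of 18 chaperones lower (33.3%) and 1 higher, and 12 of 21 S phase genes lower (57.1%) and 2 higher. There 27.2% of all genes were higher and 23.2% lower. These 4 lists kept their direction of median in the fit in which the clustered histone genes turned from a median of −0.41 to one of 1.14.

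**Figure D5:**
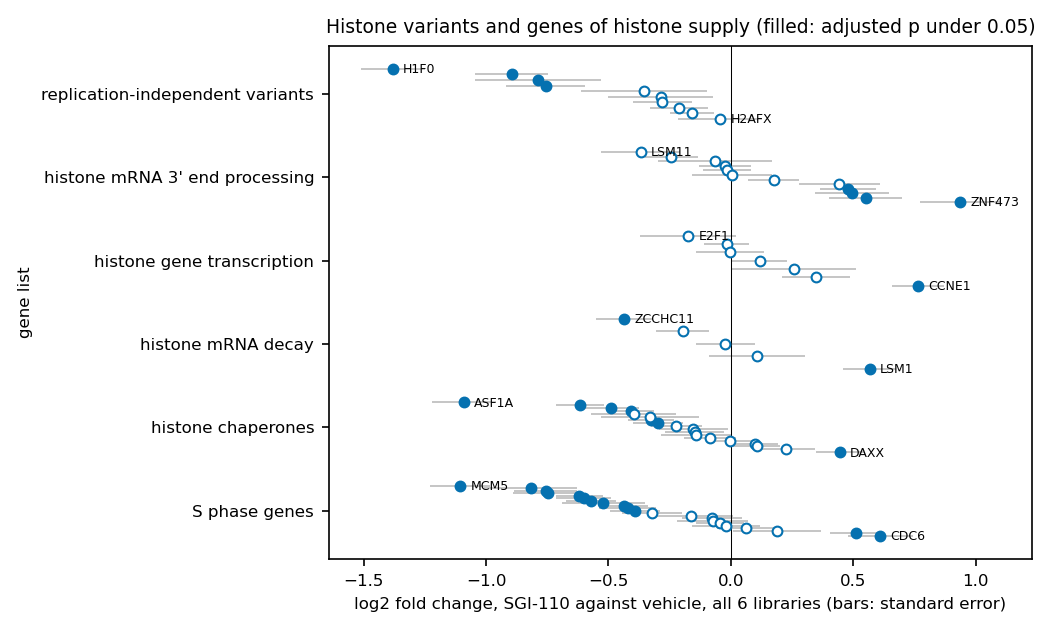
Log2 fold change of SGI-110 against vehicle with all 6 libraries (x axis) for each tested gene of 6 lists (y axis), with bars of 1 standard error and filled points at an adjusted p under 0.05. Replication-independent variants all lie below 0, with H1F0 lowest at −1.38, and S phase genes run from MCM5 at −1.11 to CDC6 at 0.61.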

How the data were processed

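RNA was sequenced from 3 vehicle and 3 SGI-110 libraries of MDA-MB-231 cells (3 independent experiments by the study's methods). The authors aligned reads to hg19 with STAR 2.3.1z, counted tags in exons per RefSeq transcript with iRNA-seq, and deposited raw counts with the exon length counted. How multiply matching reads and strand were treated is not given in the sources used here. The table's columns of the authors' own DESeq2 comparison (log2 fold change, standard error, statistic, p-values) and regularized log values were not used. Samples were grouped by their titles.

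Counts were fitted over the whole table with edgeR 4.0.16 in R 4.3.3 (TMM factors, filterByExpr with a minimum count of 10, quasi-likelihood test). A gene was called at a Benjamini-Hochberg adjusted p under 0.05 over all genes tested. Standard errors were derived from the F statistic. Normalized counts are per 17911210 counts, the average size of a library. P-values measure the spread between these libraries. The limit of detection was 3 counts in a library and covers counting error only, as reads are not independent molecules. The fit was tested on simulated counts.

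Sequences were read from GRCh37 (hg19) with pysam 0.24.0 and placed with GENCODE release 44. Genes were named by a rule: per histone type the 4 with the highest mean count and up to 3 with the largest change among called genes whose groups did not overlap, plus the testis genes, and per list up to 4 called genes with the lowest p plus chosen histone genes. Members, lists and the library singled out were chosen with earlier results of these data known. The alternatives were a replicate block, DESeq2 1.42.0, its size factors, library totals, 2 other filters and each library left out. Offsets for exon length and leaving out 2 libraries were added after the data were seen.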

Additional observations from a re-analysis of the deposited data

How the results depend on the processing

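The count of histone genes called higher was 5 with all libraries and 3 to 20 when 1 library was left out, the 20 being without vehicle replicate 3, and 19 without both vehicle replicate 3 and SGI-110 replicate 2. The count called lower was 1, ranging from 0 to 4 with 1 library left out (2 without vehicle replicate 1 or 2, 4 without SGI-110 replicate 2), 8 without both, and 0 with at least 10 counts required in every library. DESeq2's Wald test gave 6 higher and 1 lower. With 1 library left out, calls over all genes ranged from 1706 (without SGI-110 replicate 3) to 3002 higher and from 1629 to 2575 lower.

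With 1 library left out, median log2 fold changes ranged from −0.010 to 1.13 for H1, −1.68 to 1.05 for H2A, 0.17 to 1.91 for H2B (0.17 without vehicle replicate 1 and 0.19 without vehicle replicate 2), −2.19 to 0.98 for H3 and −2.85 to 1.13 for H4, and ratios of summed counts from 3.08 to 5.00 for H1, 0.641 to 2.62 for H2A, 2.38 to 3.85 for H2B and 0.208 to 2.34 for H3. The highest were without vehicle replicate 3 in each case. Without a filter the H1 median was 1.96. Without both libraries the ratios were 2.05 for H2A and 3.89 for H2B. Setting the 4 genes at 0 in vehicle replicates 1 and 2 to their bound left the median over all members at 1.14.

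The log2 fold change turned above 0 without vehicle replicate 3 for 8 named genes, with ranges over single libraries left out of −1.68 to 1.15 for HIST1H2AG, −1.94 to 0.058 for HIST1H2AM, −2.68 to 0.98 for HIST1H3B, −3.38 to 0.82 for HIST1H3C, −2.19 to 0.44 for HIST1H3H, −1.95 to 1.117 for HIST1H3A, −2.80 to 1.13 for HIST1H4K and −4.48 to 2.24 for HIST1H4B. Without both libraries it was 0.30 for HIST1H2AG and 0.21 for HIST1H3A. The range was −0.14 to 0.47 for NPAT and −0.17 to 0.13 for H2AFX. The cause was not tested.

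Without both libraries, 8 replication-independent variants were lower, 1 processing gene lower, and 3 of 7 transcription genes higher (42.9%) and 1 lower (14.3%). In that fit 27.2% of all genes were higher and 23.2% lower. With the length offset 2 transcription genes were higher. With 1 library left out, the count of germline variants higher was 1 to 2 (0 with at least 10 counts in every library), of processing genes higher 2 to 5 and lower 0 to 1, of decay genes lower 0 to 1 and of chaperones lower 3 to 6.

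No sign of pairing by replicate number was seen: correlations of same-numbered deviations were −0.027, 0.031 and −0.027. With 3 libraries per group this cannot show whether same-numbered libraries came from the same experiment. With the replicate number as a block, 7 histone genes were higher and 0 lower. Depth limited the 17 genes under the filter.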
